A study of Mus musculus with 24 samples.

Results

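Gene expression was compared between female and male mice that had all gone through subchronic variable stress (SCVS), in the nucleus accumbens (NAc), a region of the ventral striatum. The comparison covers the autosomal genes, chosen by their chromosome, of which 17078 passed the filter on low counts among 31400 autosomal genes listed and 38293 genes listed in all. The stressed females (SF) and stressed males (SM) were C57BL/6J mice, 9 weeks old by the labels (the study's methods give a younger age), exposed to foot shock, tail suspension and restraint in turn on consecutive days, and their tissue was taken the day after the last stressor. Unstressed females (NSF) and unstressed males (NSM) of the same strain and age stayed in the home cage, and are used here to ask which of the differences between the sexes were also seen without stress. All females were in estrus or proestrus when tissue was taken, so that the female groups describe these stages of the cycle only. Each group has 3 libraries, and each library is a pool of 10 punches from 5 mice, so that the spread between libraries is a spread between pools.

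The NAc is part of the brain's reward circuit, and most of its neurons are GABAergic projection neurons that carry dopamine receptors. Stress raises glucocorticoids in the blood, which bind the glucocorticoid receptor, a transcription factor that turns on genes of metabolism, of the circadian clock and of astrocytes. Neuronal activity turns on immediate early genes, which themselves code for transcription factors, and misfolded protein turns on heat shock genes, which code for chaperones.

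Between 41076780 and 51138274 reads were counted on genes in the 6 stressed libraries, and up to 60867747 in the unstressed ones. Xist and Ddx3y separated the libraries as their labels say in 12 of 12 cases. Markers of the projection neurons of the striatum were abundant in all stressed libraries and 0 of 10 were called, with a summed level of 6790.0, 5875 and 6476 reads per 1000000 counted reads (CPM) in SF and 6993, 7079 and 6229 CPM in SM. Markers of cortical glutamatergic neurons varied between pools of the same group, with summed levels of 73.8, 78.9 and 149.8 CPM in SF and 75.7, 172 and 239 CPM in SM, and 0 of 10 were called. Mitochondrial transcripts took 9.75 to 9.93% of the reads in SF and 10.7 to 11.8% in SM.

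Of the 17078 autosomal genes, 941 (5.51%) differed between SF and SM by 1.3-fold or more with an unadjusted p below 0.05 (voom and limma), the rule by which a gene is called here. Of these, 799 (4.68% of the genes tested) were higher in SF and 142 (0.831%) were lower, so that 84.9% of the called genes were higher in females. The 3 SF values and the 3 SM values did not overlap for 753 of the called genes, against 3523 (20.6%) of all genes tested. The median absolute log2 fold change of the called genes was 0.61, and 187 of them reached a 2-fold difference, 156 higher and 31 lower in SF. After Benjamini-Hochberg adjustment over all genes tested, 18 genes (0.105%) kept an adjusted p under 0.05 in limma, 18 of them higher in SF, and the smallest adjusted p among genes lower in SF was 0.0679. This small number depended on single pools: it was 0 without SF2, 1 without SM2, 3 without SM1, 5 without SF3, 7 without NSM2 and 10 without NSF1, NSF3 or SM3, but 174 without NSM3, 390 without NSM1 and 483 without SF1. It also depended on the model, at 552 with DESeq2, 503 when only the 6 stressed libraries were fitted, 791 with a replicate block and 1803 with library quality weights. With each library left out in turn, between 689 and 1356 genes were called, and 74.3 to 88.2% of them were higher in SF.

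**Figure D1:**
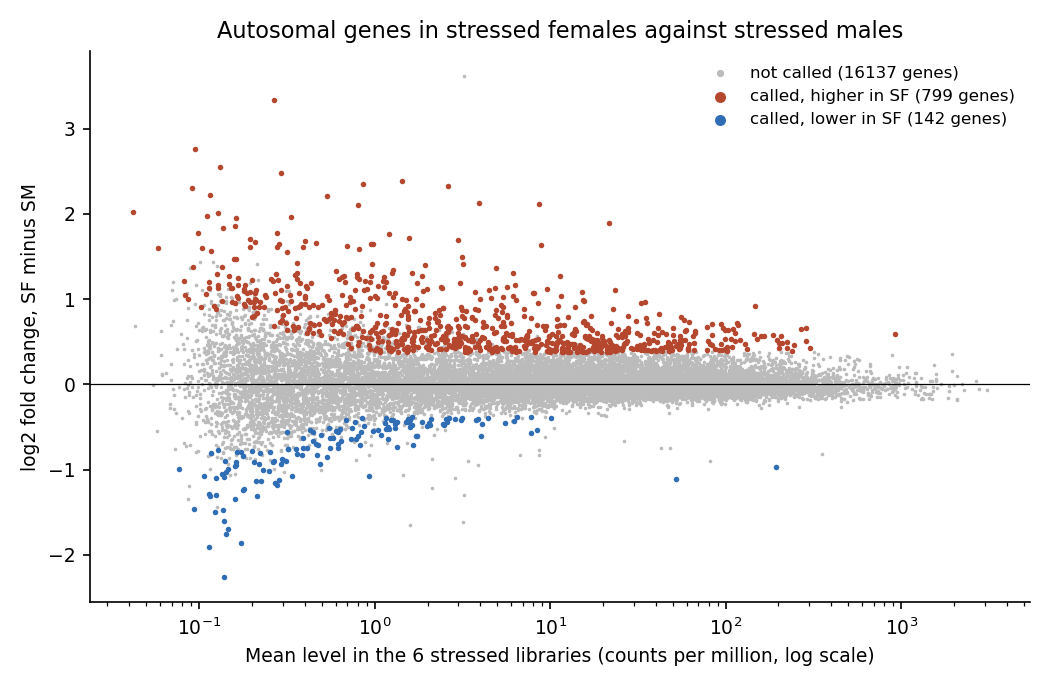
Each dot is an autosomal gene, with its mean level in the 6 stressed libraries in CPM on a log axis and its log2 fold change between stressed females (SF) and stressed males (SM) on the other axis. The 799 called genes above zero (red) outnumber the 142 below it (blue), and the called genes below zero lie mostly at low levels.

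The excess of genes higher in SF lay mainly among genes rich in G and C. When the 15100 genes with a coding transcript in the annotation were put in 5 equal groups by the GC content of their longest transcript, 15.6% of the group with the highest GC (56.2 to 76.5%) were called higher in SF, against 1.16 to 3.44% in the other 4 groups. The median gene of this group lay below their mean over the 12 libraries in SM1, SM2 and SM3 (median log2 deviation -0.134, -0.207 and -0.026), near or above it in SF1, SF2 and SF3 (-0.0027, 0.088 and 0.114). In unstressed mice it lay above the mean in NSF1, NSF2 and NSF3 (0.062, 0.104 and 0.161), below it in NSM1 and NSM2 (-0.154 and -0.052) and above it in NSM3 (0.068). After this trend had been seen, the fit was repeated with each library's GC trend removed. Then 676 genes (3.96%) were called, 480 higher and 196 lower in SF, a share of 71.0% higher, and 577 of the calls were shared with the fit without this step. Of the 18 genes with an adjusted p under 0.05, 12 stayed called after GC adjustment. The part of the GC trend in the differences was not tested, and values after GC adjustment are given below where they end a call or change the fold by more than 1.5 times.

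**Figure D2:**
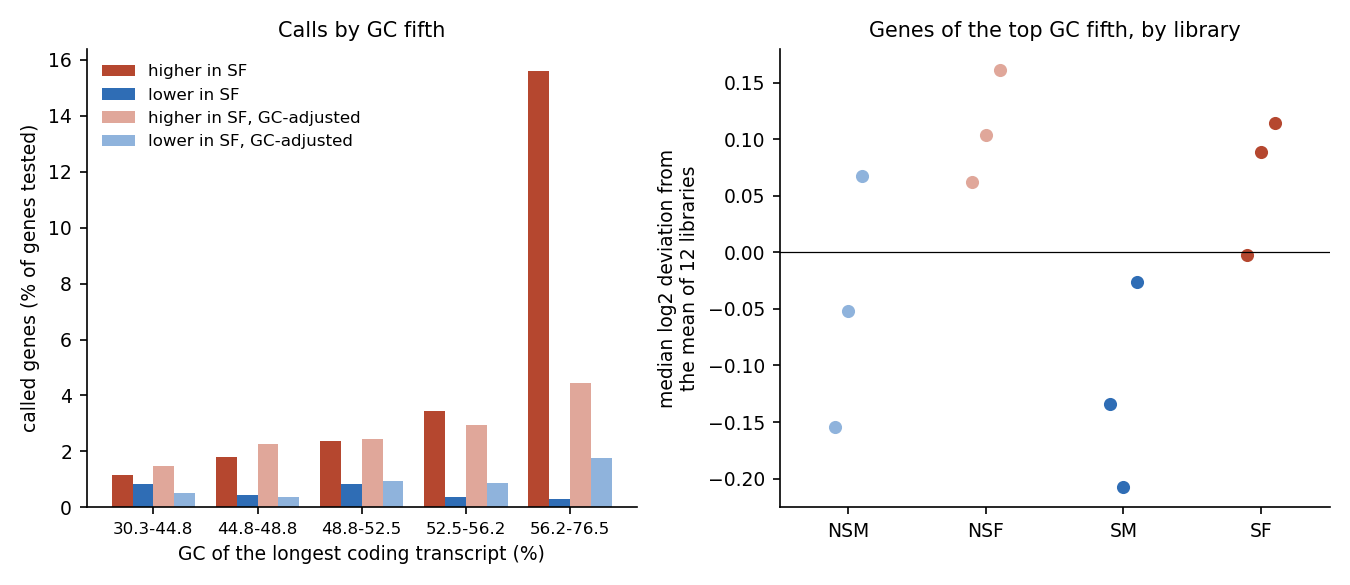
The left panel shows the percentage of genes called higher or lower in SF in 5 groups of genes by GC content, before (dark bars) and after (pale bars) GC adjustment, and the bar for high-GC genes higher in SF falls from 15.6 to 4.44%. The right panel shows, for each library (dot), the median log2 deviation of the genes with the highest GC from their mean over the 12 libraries, which is below zero in the 3 SM libraries.

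Several targets of the glucocorticoid receptor were higher in SF. Of 17 tested targets, 6 were called higher and 0 lower, where 4.68% of all genes tested were called higher, and the median log2 difference of the list was 0.25, against 0.0070 over all autosomal genes. Zbtb16, a zinc finger transcription repressor (ENSMUSG00000066687, chr9:48462416-48644050, minus strand, coordinates in NCBIM37 here and below), had 13.8, 10.2 and 9.18 CPM in the SF libraries and 4.35, 5.40 and 5.76 CPM in the SM libraries, without overlap (log2 fold change 1.07, SE 0.18, adjusted p = 0.0322). Its unstressed groups, at 10.0 ± 1.68 (NSF) and 10.5 ± 1.04 CPM (NSM; SD, n = 3), were close to the SF mean, and the SM pools were the low ones. Gjb6, the astrocyte gap junction protein connexin 30 (ENSMUSG00000040055, chr14:57742140-57752448, minus strand), measured 25.7, 26.5 and 23.9 CPM in the SF libraries and 18.7, 16.8 and 17.9 CPM in the SM libraries (log2 fold change 0.52, SE 0.090, adjusted p = 0.0438). Plin4, a protein of the lipid droplet surface (ENSMUSG00000002831, chr17:56240014-56249225, minus strand), ranged from 4.72 to 9.74 CPM in SF and from 2.52 to 3.79 CPM in SM, with the highest value in SF1 (log2 fold change 1.13, adjusted p = 0.0873). The metallothioneins Mt1 (log2 fold change 0.60) and Mt2 (0.43), which bind zinc, and Hif3a (0.58), a hypoxia-inducible factor, were the other called targets, and Mt2 lost its call without SF2, without SM2 and after GC adjustment (0.31).

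Several textbook targets of the receptor differed little. Fkbp5, which codes for a cochaperone of the receptor, measured 59.8 ± 8.09 CPM in SF and 55.2 ± 1.31 CPM in SM (SD, n = 3, adjusted p = 0.541 in limma), and Sgk1, a kinase, had a log2 difference of 0.15 (adjusted p = 0.402 in limma). Per1 and Ddit4 did not overlap between the groups but stayed under the fold change minimum (log2 difference 0.28 and 0.32). The receptor gene itself, Nr3c1, had 122 ± 3.04 CPM in SF and 124 ± 5.79 CPM in SM. Without stress, 1 of the 17, Mt1, was called higher in NSF than in NSM, with a list median of 0.050 on the log2 scale.

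The genes with the smallest p-values are named by rank, across functions. Irs2, the adaptor that couples the insulin receptor to its kinases (ENSMUSG00000038894, chr8:10986980-11008458, minus strand), had 44.5, 46.4 and 41.6 CPM in the SF libraries and 26.6, 24.8 and 26.1 CPM in the SM libraries (log2 fold change 0.77, SE 0.10, adjusted p = 0.00611). The NSF and NSM pools held 48.8 ± 5.86 and 46.0 ± 6.24 CPM, so that only the SM pools were low. Irs2 has a GC content of 63.6%, and after GC adjustment its log2 difference was 0.37, under the fold change minimum. Rasd1, a small GTPase named for its induction by dexamethasone (ENSMUSG00000049892, chr11:59776683-59778446, minus strand), had 8.03, 10.4 and 7.67 CPM in the SF libraries and 4.03, 3.28 and 4.39 CPM in the SM libraries (log2 fold change 1.17, SE 0.17, adjusted p = 0.0125), and kept a log2 difference of 1.15 after GC adjustment. Klf15, a zinc finger transcription factor of glucose and amino acid metabolism (ENSMUSG00000030087, chr6:90412570-90425232, plus strand), had 19.8, 21.3 and 21.1 CPM in the SF libraries and 14.8, 12.7 and 16.02 CPM in the SM libraries (log2 fold change 0.52, SE 0.086, adjusted p = 0.0351). Slc2a1, the glucose transporter of the blood-brain barrier and glia, had 73.2, 75.8 and 75.8 CPM in the SF libraries and 55.8, 53.1 and 61.7 CPM in the SM libraries (log2 fold change 0.40, adjusted p = 0.00811), and lost its call without SM2 or after GC adjustment (0.34).

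Agxt2l1, the phospholyase that breaks down phosphoethanolamine (ENSMUSG00000019232, chr3:130320366-130338668, plus strand), had the next smallest p-value after Irs2 among these genes. It measured 16.3, 20.2 and 17.5 CPM in the SF libraries and 10.3, 8.29 and 10.3 CPM in the SM libraries (log2 fold change 0.91, SE 0.13, adjusted p = 0.00787), and all SF pools lay above all SM pools. Per2, the clock repressor (ENSMUSG00000055866, chr1:93312561-93355907, minus strand), had 68.4, 62.8 and 64.6 CPM in the SF libraries and 47.7, 42.5 and 48.1 CPM in the SM libraries (log2 fold change 0.51, SE 0.089, adjusted p = 0.0474), while 18 of the 19 tested clock genes were not called and Bmal1 (listed as Arntl), Clock and Cry1 had log2 differences of 0.065, -0.041 and 0.051. Cables1, which links cyclin-dependent kinases to other kinases, had the smallest adjusted p of all (ENSMUSG00000040957, chr18:11997729-12104136, plus strand). Its values were 22.1, 22.1 and 20.1 CPM in the SF libraries and 15.4, 14.7 and 15.4 CPM in the SM libraries (log2 fold change 0.50, SE 0.062, adjusted p = 0.00346), with a log2 difference of 0.27 after GC adjustment that fell short of the fold change minimum. Banp, a DNA-binding nuclear protein (ENSMUSG00000025316, chr8:124473650-124553158, plus strand), had 21.3, 19.4 and 18.9 CPM in the SF libraries and 11.2, 11.5 and 14.2 CPM in the SM libraries (log2 fold change 0.70, SE 0.12, adjusted p = 0.0363). Lfng, a fringe glycosyltransferase that modifies Notch, had a log2 difference of 0.44 (adjusted p = 0.0416), and 0.24 after GC adjustment, where it was not called. It lost its call without SM1 as well. Mafa, a transcription factor best known from insulin-producing cells, ranged from 0.614 to 1.07 CPM in SF and from 0.128 to 0.227 CPM in SM (log2 fold change 2.21, SE 0.37, adjusted p = 0.0363, and a log2 difference of 1.47 after GC adjustment), and Gm10543, a pseudogene whose counts are uncertain where it shares reads with related genes, had a log2 difference of 1.3.

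The other genes with an adjusted p under 0.05 in limma are named by that threshold, after their values were seen. They were Id3, an inhibitor of helix-loop-helix transcription factors (19.3 ± 1.09 CPM in SF and 11.6 ± 1.47 CPM in SM, log2 fold change 0.74), Snrk, a kinase (0.34), Arhgef18 (0.32), and Il25, a cytokine gene at a mean of only 4.33 reads per library (2.30). Snrk and Arhgef18 were under a 1.3-fold difference and so were not called, while Id3 stayed called without each of the 12 libraries in turn. Il25 did so too, but its SM libraries held only 0.025, 0.021 and 0.022 CPM, near the floor of counting. Leaving out single libraries therefore cannot test the call of Il25, and the size of its fold is uncertain.

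**Figure D3:**
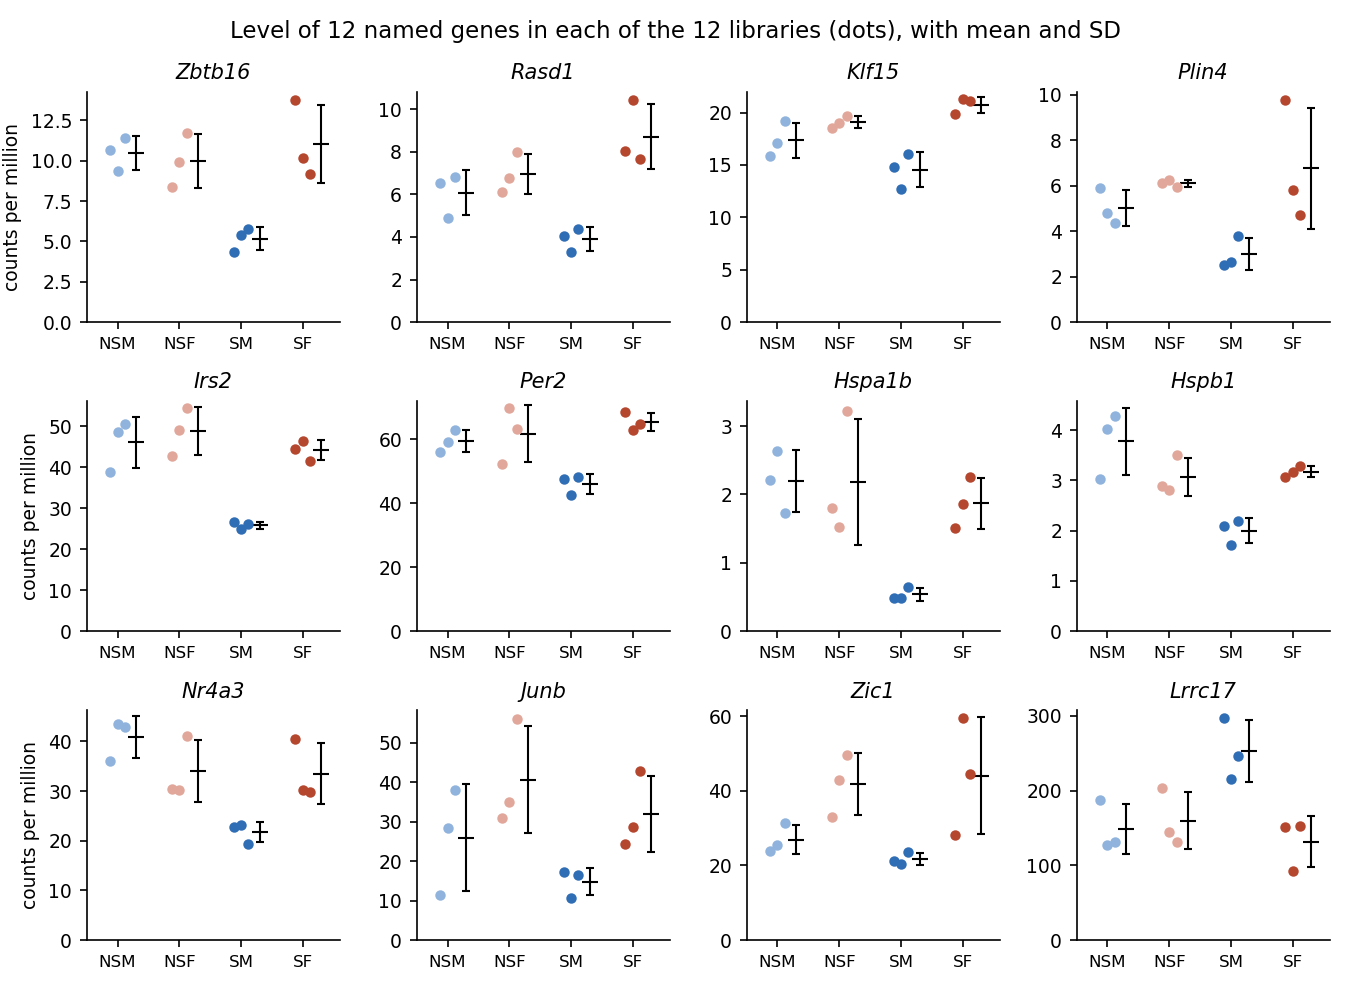
Levels of 12 named genes in CPM in every library (dots) of unstressed males (NSM), unstressed females (NSF), stressed males (SM) and stressed females (SF), with the mean and SD of 3 libraries beside them. For Zbtb16, Irs2, Per2, Hspa1b and Nr4a3 the SM libraries lie below the SF libraries and below both unstressed groups, while Lrrc17 is highest in SM.

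The genes of the inducible Hsp70 were higher in SF, and most other chaperones of the list were not called. Of 20 tested heat shock chaperones, 4 were called higher in SF and 0 lower (4.68% of all genes tested were called higher), with a list median of 0.094 on the log2 scale. All 4 were in the group with the highest GC, of which 15.6% were called higher, and 2 stayed called after GC adjustment. The called genes were Hspa1a and Hspa1b, which code for the inducible Hsp70, Hspb1, the small chaperone Hsp27, and Bag3, the cochaperone that hands Hsp70 clients to autophagy. The transcription factor that induces them binds repeats of GAA and its complement, written here as GAANNTTC or TTCNNGAA on either strand, where N is any base. The 250 bases before the start of the 3 called genes that hold such a pattern are shown because these genes were higher in SF together. They are from the RefSeq promoters of GRCm38.p6, a later build than that of the counts, in lower case with matches in capitals.

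Hspa1a (chr17:34972157-34972406, minus strand): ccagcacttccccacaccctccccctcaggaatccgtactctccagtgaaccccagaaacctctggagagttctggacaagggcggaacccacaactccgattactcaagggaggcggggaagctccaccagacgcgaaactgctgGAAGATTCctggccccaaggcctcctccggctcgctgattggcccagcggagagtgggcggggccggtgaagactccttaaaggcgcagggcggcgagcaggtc
Hspa1b (chr17:34959239-34959488, minus strand): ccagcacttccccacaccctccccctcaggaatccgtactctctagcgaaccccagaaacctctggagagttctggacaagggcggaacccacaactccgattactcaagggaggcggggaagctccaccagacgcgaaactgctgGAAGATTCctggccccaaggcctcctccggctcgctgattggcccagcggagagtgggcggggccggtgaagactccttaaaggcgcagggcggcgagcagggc
Hspb1 (chr5:135887669-135887918, plus strand): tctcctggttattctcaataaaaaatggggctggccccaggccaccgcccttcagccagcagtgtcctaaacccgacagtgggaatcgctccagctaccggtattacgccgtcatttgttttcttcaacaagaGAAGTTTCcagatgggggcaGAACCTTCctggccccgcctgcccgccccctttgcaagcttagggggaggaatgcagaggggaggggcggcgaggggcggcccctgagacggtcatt

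The pattern lay 104 bases before the start in Hspa1a and in Hspa1b, and 117 and 97 bases before it in Hspb1. It was not found in the window of Bag3. Among the 15 chaperones with an entry in the promoter table, 8 held it in at least 1 promoter, and of all 27025 genes with an entry 14.5% did. The windows of Hspa1a and Hspa1b were the same at 247 of 250 bases. Reads of these near-identical genes can be assigned to either copy, so their counts are uncertain one by one. Hspa1b (ENSMUSG00000090877, chr17:35093381-35096183, minus strand) had 1.504, 1.86 and 2.25 CPM in the SF libraries and 0.478, 0.489 and 0.642 CPM in the SM libraries (log2 fold change 1.77, SE 0.36, adjusted p = 0.0825). The copy Hspa1a (ENSMUSG00000091971, chr17:35106144-35109069, minus strand) had 0.932, 1.45 and 1.27 CPM in the SF libraries and 0.554, 0.362 and 0.310 CPM in the SM libraries (log2 fold change 1.59, SE 0.28, adjusted p = 0.0474). All 3 SF pools exceeded all 3 SM pools for both copies, and the calls stayed after GC adjustment (log2 difference 1.60 and 1.37).

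Hspb1 (ENSMUSG00000004951, chr5:136363789-136365433, plus strand) had 3.07, 3.17 and 3.28 CPM in the SF libraries and 2.09, 1.72 and 2.19 CPM in the SM libraries (log2 fold change 0.67, SE 0.16, adjusted p = 0.0917), and Bag3 measured 6.03 ± 0.469 CPM in SF and 4.48 ± 0.0424 CPM in SM (SD, n = 3, log2 fold change 0.43, adjusted p = 0.0884). Both fell short of the fold change minimum after GC adjustment (0.35 and 0.33), and Bag3 was not called without SF2 or with quantile normalization either. The abundant chaperones were not called, with 1511 ± 22.8 CPM in SF and 1546 ± 118 CPM in SM for Hsp90ab1 and log2 differences of 0.074 for Hspa8 and 0.015 for Hsph1. In unstressed mice 0 of the 20 chaperones were called between the sexes and the list median was -0.155. The difference between the 2 sex differences was called for 6 of the 20, Hspa1a, Hspa1b, Hspb1, Bag3, Dnajb1 and Chordc1, where 4.25% of all genes tested were called in that test. Chaperones of the endoplasmic reticulum were counted separately. Of 20, only Sdf2l1 was called, at 6.54, 6.20 and 6.44 CPM in SF and 4.48, 4.32 and 4.36 CPM in SM (log2 fold change 0.54, adjusted p = 0.106), and Hspa5, which codes for the main chaperone BiP, had a log2 difference of 0.28 with -0.33 between the unstressed groups.

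Immediate early genes were in part higher in SF, the day after the last stressor. Of 20 tested, 7 were called higher in SF and 0 lower (background 4.68%), with a list median of 0.146 on the log2 scale. Egr3, Egr4, Junb, Ier2 and Klf2 were in the group with the highest GC, of which 15.6% were called higher. After GC adjustment 4 genes of the list were called. Nr4a3, an orphan nuclear receptor (ENSMUSG00000028341, chr4:48058025-48099319, plus strand), had 40.5, 30.1 and 29.9 CPM in the SF libraries and 22.7, 23.1 and 19.4 CPM in the SM libraries (log2 fold change 0.61, SE 0.14, adjusted p = 0.0884). Junb, a subunit of the AP-1 transcription factor (ENSMUSG00000052837, chr8:87500811-87502617, minus strand), ranged from 24.3 to 42.8 CPM in SF and from 10.8 to 17.1 CPM in SM (log2 fold change 1.11, SE 0.40, adjusted p = 0.187), and was not called without SF3 or without SM2. Jun, another subunit of AP-1 (log2 fold change 0.48), and the zinc finger factors Egr3 (0.61) and Egr4 (1.11) did not overlap between the groups. Klf2 (0.50) and Ier2 (0.81) did overlap, and they and Egr3 were not called after GC adjustment (log2 difference 0.18, 0.52 and 0.27). Egr4 kept its call with a difference of 0.49. Omitting 1 library ended the call of Ier2 in 4 cases (SF2, SF3, SM1 and SM2) and that of Klf2 in 8, all but SF1, SM3, NSM1 and NSM3. Those best known as activity markers were not called: Fos had 9.86 ± 2.52 CPM in SF and 9.07 ± 1.60 CPM in SM (SD, n = 3), and Arc, Egr1, Npas4 and Nr4a1 had log2 differences of 0.062, 0.092, -0.062 and -0.019. Fosb was non-overlapping at a log2 difference of 0.34 (adjusted p = 0.211 in limma), under the fold change minimum. Of the 20 genes, 4 were called higher in NSF than in NSM, namely Junb, Egr3, Egr4 and Ier2, and 2 were called lower, and the list median was -0.036 there. A full cyclic AMP response element, TGACGTCA, which reads the same on both strands, lay within 250 bases before the start in 2 of the 15 immediate early genes with a promoter entry, Btg2 and Dusp1, and in 1.77% of all genes with an entry.

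**Figure D4:**
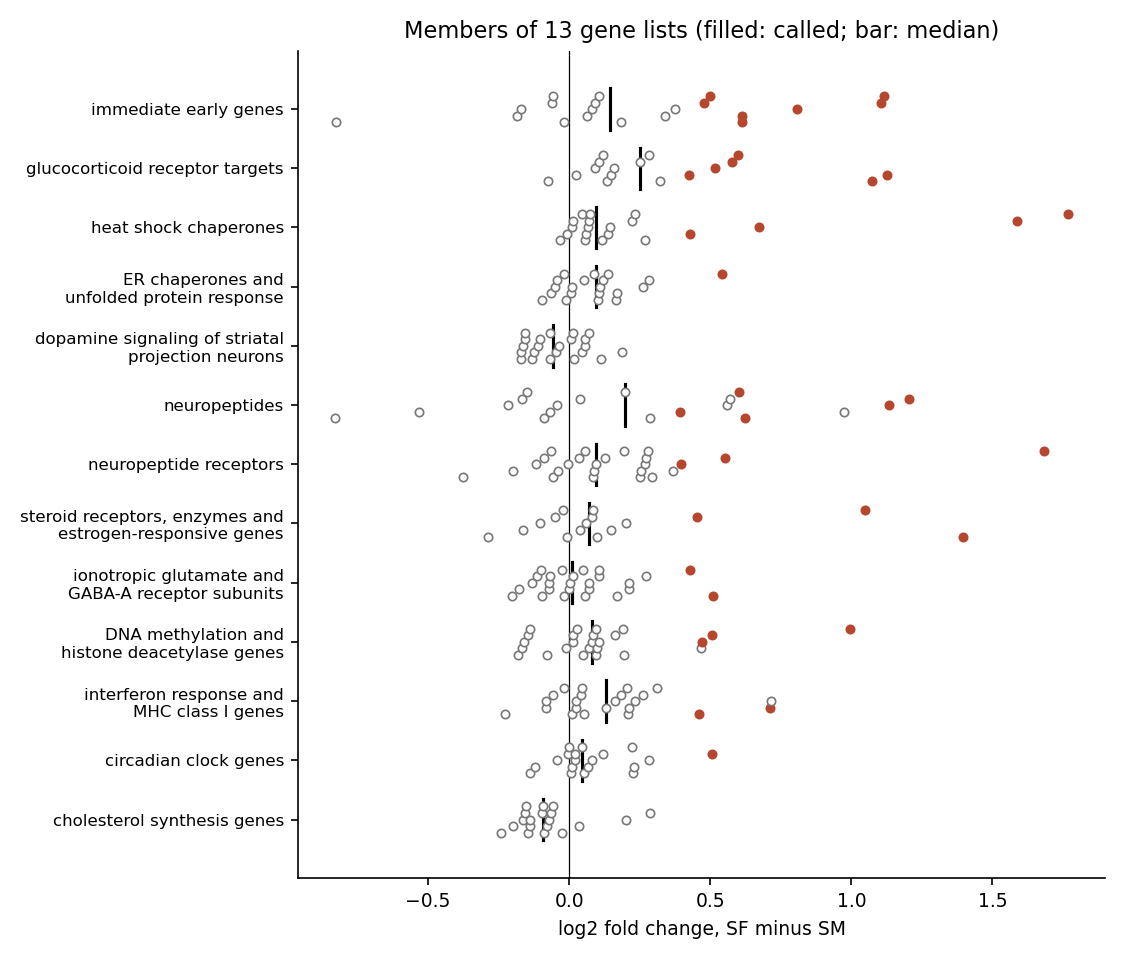
Log2 fold changes between SF and SM for the tested members of 13 gene lists (circles), with called members filled in red and the median of each list as a bar. All filled circles lie to the right, and the medians range from -0.092 (cholesterol synthesis) to 0.25 (glucocorticoid receptor targets).

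Among neuropeptide genes 5 of 19 tested were called higher in SF and 0 lower, where 4.68% of all genes tested were called higher. Cartpt, the precursor of CART peptides, which are made by neurons of the NAc (ENSMUSG00000021647, chr13:100668439-100670638, minus strand), had 50.6, 47.0 and 39.2 CPM in the SF libraries and 37.6, 31.3 and 35.2 CPM in the SM libraries (log2 fold change 0.39, SE 0.12, adjusted p = 0.129). It was not called without SF1, SF2 or SM2. Nts, which codes for neurotensin, a peptide that modulates dopamine signaling, had 39.6, 40.1 and 29.9 CPM in the SF libraries and 37.1, 15.99 and 23.9 CPM in the SM libraries (log2 fold change 0.60, adjusted p = 0.188). SM1 overlapped the SF pools, and the call was lost without SF2, without SM2 and by DESeq2. In unstressed mice the sign of Nts was the other one (-0.80), and the difference between the sex differences was 1.40 (adjusted p = 0.142 in limma). Prok2, a secreted prokineticin, had log2 differences of 0.62 with stress and -1.10 without it, and its call with stress was lost without SF1, SF2, SM2 or SM3. Pomc (log2 difference 1.20) and Pnoc (1.13), precursors of opioid and nociceptin peptides, stayed under 6 CPM in each stressed library, and both lost their call without SM2. SF2, the pool with the most Pnoc, also held the most RNA of septal, thalamic and hypothalamic markers (82.6 CPM), whose part in these differences was not tested. The peptides that define the projection neurons were not called: Penk had 1420.0 ± 104 CPM in SF and 1597 ± 165 CPM in SM (SD, n = 3), and Pdyn and Tac1 had log2 differences of -0.066 and -0.091. Crh, the stress peptide corticotropin-releasing hormone, had 2.39, 4.01 and 2.64 CPM in SF and 3.22, 1.57 and 1.64 CPM in SM, which overlapped (adjusted p = 0.459 in limma).

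Neuropeptide receptors gave 3 called genes of 25, higher in SF in each case (background 4.68%): Avpr1a, the vasopressin receptor (log2 fold change 1.68, adjusted p = 0.251 in limma), Galr1, a galanin receptor (0.55), and Crhr2, a receptor of the corticotropin-releasing hormone family (0.40). Avpr1a ranged from 0.169 to 0.998 CPM in SF and from 0.066 to 0.378 CPM in SM, with overlap. Leaving out single libraries ended the call in 4 of 12 cases for Avpr1a (SF2, SF3, SM2 and SM3), in 6 for Galr1 (NSF3, NSM2, SF2, SF3, SM2 and SM3) and in 9 for Crhr2, which kept it only without NSF1, NSF2 or SF1. Crhr2 was not called by DESeq2 or after GC adjustment (0.32) either. Opioid receptors stayed below the fold change minimum, with log2 differences of 0.25 for Oprm1, -0.038 for Oprd1 and -0.20 for Oprk1.

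Of 16 tested genes of steroid receptors, steroid enzymes and estrogen response, 3 were called, all higher in SF (background 4.68%). Esr1 (log2 difference 0.15, adjusted p = 0.806), Esr2 (0.081, adjusted p = 0.927) and Pgr (0.098, adjusted p = 0.513 in limma), the estrogen and progesterone receptors, were not called. Prlr, the prolactin receptor (ENSMUSG00000005268, chr15:10106993-10303504, plus strand), had 1.72, 3.95 and 2.84 CPM in the SF libraries and 1.13, 0.893 and 1.06 CPM in the SM libraries (log2 fold change 1.40, SE 0.43, adjusted p = 0.128). Esrra, an orphan receptor that drives mitochondrial genes, had a log2 difference of 0.45, which was 0.13 after GC adjustment, and lost its call without SM2. Akr1c18, a progesterone-metabolizing enzyme, rested on 0.022 to 0.131 CPM per library and overlapped between the groups (log2 difference 1.05, adjusted p = 0.298). It stayed called in 3 of the 12 fits that left out a library, those without NSF3, NSM1 or SM1, and was called by neither edgeR nor DESeq2.

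Of 25 tested genes of DNA methylation and histone deacetylation, 3 were called higher in SF (background 4.68%). All 3 were in the group with the highest GC, of which 15.6% were called higher. Gadd45g, a stress-induced protein linked to DNA demethylation (ENSMUSG00000021453, chr13:51942047-51943837, plus strand), had 7.48, 8.65 and 9.39 CPM in the SF libraries and 4.68, 3.78 and 4.36 CPM in the SM libraries (log2 fold change 0.99, SE 0.23, adjusted p = 0.0884), and its relative Gadd45b a log2 difference of 0.51. Hdac5, a class II histone deacetylase, had 135, 155 and 161 CPM in the SF libraries and 109, 96.4 and 121 CPM in the SM libraries (log2 fold change 0.47, adjusted p = 0.0994), fell to 0.28 after GC adjustment and lost its call without SM2. The DNA methyltransferases Dnmt1 and Dnmt3a measured 71.7 ± 1.14 and 136 ± 5.05 CPM in SF and 67.1 ± 0.645 and 132 ± 6.66 CPM in SM (SD, n = 3), and neither was called. The receptor subunits Grin1 and Grin2d of the NMDA receptor were called among 26 ionotropic glutamate and GABA-A subunits (log2 difference 0.43 and 0.51), and after GC adjustment both fell short of the fold change minimum (0.21 and 0.041). Grin2d lost its call without SF2 or SM2 as well. Among 23 genes of the interferon response and MHC class I presentation, Bst2 (0.71) and Tap2 (0.46) were called, and Tap2 was not called after GC adjustment (0.34) or without SF2 or SM2. The 2 of 26 and the 2 of 23 are shares near the 4.68% of all genes called higher.

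None of 22 dopamine receptor and projection neuron signaling genes was called (limma, with 1 of the 22, Gpr6, at an unadjusted p under 0.05). Drd1 (listed as Drd1a) had 317 ± 30.7 CPM in SF and 356 ± 31.4 CPM in SM, and Drd2 144 ± 13.3 and 150.5 ± 9.11 CPM (SD, n = 3). None of 19 genes of cholesterol synthesis was called either, but 16 of them had a negative difference and 10 did not overlap between the groups, where 20.6% of all genes tested did not overlap. The list median was -0.092 on the log2 scale, and the members with the most negative differences were Sc4mol, a methylsterol oxidase (-0.24, adjusted p = 0.208 in limma) and Insig1, which holds back the sterol sensor in the endoplasmic reticulum (-0.20, adjusted p = 0.329). Srebf2, the transcription factor of the pathway, went the other way, at 228 ± 11.9 CPM in SF and 187 ± 5.40 CPM in SM (log2 difference 0.29, adjusted p = 0.0884), under the fold change minimum. Over the 13 lists of pathways and functions, 37 genes were called, 20 without SM2 and 25 after GC adjustment.

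The largest differences among called genes with at least 10 reads on average and groups that did not overlap were found at low levels. Higher in SF were Gm4392 (log2 fold change 3.34), AC123610.1, a short gene of the miRNA class (2.48), A230065H16Rik (2.39), Mrps34, a protein of the mitochondrial ribosome (2.35), and Gm1673 (2.32). Their SM libraries held between 0.021 and 1.15 CPM. For Gm4392 they held 0.025, 0.021 and 0.044 CPM, near the floor of counting, so that the size of its fold is uncertain. Mrps34 ranged from 0.593 to 1.90 CPM in SF and from 0.128 to 0.403 CPM in SM and lost its call without SM2. Gm4392, Mrps34 and Gm1673 were also called higher in NSF than in NSM (log2 difference 1.93, 2.03 and 1.66), and their GC contents were 72.0, 59.9 and 68.2%. After GC adjustment the stressed differences of Gm4392 and Gm1673 were 2.56 and 1.70, and both stayed called.

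Genes lower in SF were fewer. Lrrc17, a secreted leucine-rich repeat protein (ENSMUSG00000039883, chr5:21049345-21081718, plus strand), was the most abundant of those named, at 151, 91.9 and 152 CPM in the SF libraries and 297, 216 and 246 CPM in the SM libraries (log2 fold change -0.97, SE 0.21, adjusted p = 0.0835). All SM pools lay above the SF pools and above the means of NSF (159.9 ± 38.1 CPM) and NSM (149 ± 33.4 CPM; SD, n = 3). AC161763.1, another short gene of the miRNA class (ENSMUSG00000093126, chr7:152100376-152100446, plus strand), had the smallest p among genes lower in SF, at 42.3, 21.9 and 37.6 CPM in the SF libraries and 80.8, 62.2 and 69.2 CPM in the SM libraries (log2 fold change -1.11, SE 0.22, adjusted p = 0.0743). Libraries of long RNA do not capture mature miRNAs, so the values of this class are not miRNA levels. Other genes lower in SF with values that did not overlap were Krt12, a keratin (log2 fold change -0.74), Cstad (-0.72), 4933407L21Rik (-0.43), 1700040I03Rik (-0.39), the profilin Pfn4 (-0.39), Ccdc138 (-0.40), the long noncoding RNA B230206H07Rik (-0.64) and the pseudogene Gm8430 (-0.54). By the size of the difference Myot, which codes for the muscle protein myotilin (-1.08), A730068I03Rik (-1.13), the pseudogene Gm5641 (-1.16) and 1 copy of the small nuclear RNA U6 (-1.18) were added, all under 2 CPM in each stressed library. Of the protein-coding genes among all these, Pfn4 and Ccdc138 were not called after GC adjustment (-0.35 and -0.36). Omitting 1 library ended the call of Pfn4 (SF1, SM1 or SM2), 1700040I03Rik (SF1 or SM2) and Ccdc138 (SF3).

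Markers of tissue next to the NAc moved with the comparison. Of the 5 markers of septal, thalamic and hypothalamic neurons that passed the filter, 5 were called higher in SF (background 4.68%), with a summed level of 41.6, 82.6 and 68.2 CPM in SF1, SF2 and SF3 and 32.9, 32.8 and 37.8 CPM in SM1, SM2 and SM3. Zic1, a transcription factor of the septum (ENSMUSG00000032368, chr9:91252896-91260648, minus strand), accounted for most of it, at 28.2, 59.4 and 44.6 CPM in the SF libraries and 21.1, 20.5 and 23.6 CPM in the SM libraries (log2 fold change 0.96, SE 0.22, adjusted p = 0.0884). Slc17a6, the glutamate transporter of subcortical neurons, had 3.47, 6.77 and 9.35 CPM in the SF libraries and 2.57, 3.19 and 4.30 CPM in the SM libraries, which overlapped (log2 fold change 0.87, adjusted p = 0.276). Zic2 (0.68), Gbx2 (0.55) and Tcf7l2 (0.38) were the others, and each of these and Slc17a6 lost its call without SF2, without SF3 and without 1 or both of SM1 and SM2. Tcf7l2 lost it in 9 of the 12 omissions. After GC adjustment Zic2 and Gbx2 were not called, at differences of 0.55 and 0.45, and Gbx2 was called by neither edgeR nor DESeq2. The hypothalamic peptides Hcrt, Pmch, Avp and Oxt had at most 2, 3, 3 and 6 reads in any stressed library and were not tested. Without stress, 3 of the 5 tested markers (Zic1, Zic2 and Slc17a6) were also called higher in NSF than in NSM. Tcf7l2 and Gbx2 had the other sign in that comparison (log2 difference -0.34 and -0.37) and were not called. There, 5.29% of all genes tested were called in either direction. The list median was 0.632 without stress and 0.676 with it on the log2 scale.

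Of 8 ependymal markers, which mark the ciliated lining of the ventricles, 4 were called higher in SF (background 4.68%), namely Foxj1 (log2 fold change 0.80), Ccdc153 (0.89), Tmem212 (1.02) and Rarres2 (0.44). Foxj1 had 6.80, 11.1 and 9.44 CPM in the SF libraries and 4.61, 5.46 and 5.34 CPM in the SM libraries, and the summed level of the list was 27.9, 41.7 and 33.0 CPM in SF and 24.0, 28.5 and 24.2 CPM in SM. SF2 had the highest value in both lists. Without SF2, the calls of Ccdc153, Tmem212, Rarres2, Zic2, Gbx2, Slc17a6 and Tcf7l2 were lost, while Foxj1 and Zic1 stayed called. The calls of Ccdc153, Tmem212 and Rarres2 were also lost without SM1 or SM3, and that of Rarres2 without SF3. Hemoglobin genes went the other way: Hba-a1 (log2 difference -0.46), Hba-a2 (-0.46) and Hbb-b2 (-0.60) of 4 tested erythroid markers were called lower in SF, where 0.831% of all genes tested were called lower, and the list summed to 30.4, 27.6 and 30.2 CPM in SF and 44.7, 36.2 and 37.9 CPM in SM, so that the groups did not overlap. In unstressed mice the list median had the other sign, 0.32, and the difference between the sex differences was called for 4 of 4 (background 4.25%). The copies of each hemoglobin share reads, so their counts are uncertain one by one. Without SM1 the calls of Hba-a1 and Hba-a2 were lost, and without SF2 that of Hba-a2. The part of neighboring tissue or of blood left in the punch in the differences above was not tested, and in tissue RNA fewer cells of a type and less RNA per cell cannot be told apart.

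Other cell types had at most 2 called markers each, all higher in SF (background 4.68%). Of 9 astrocyte markers 2 were called, Gjb6 and Agt, which codes for angiotensinogen (3.79, 8.55 and 8.76 CPM in the SF libraries and 3.65, 3.38 and 3.34 CPM in the SM libraries, log2 fold change 0.93, adjusted p = 0.136), while Slc1a2, Aqp4 and Gja1 had log2 differences of -0.066, -0.042 and -0.0049. None of 10 oligodendrocyte, 11 microglia, 10 endothelial, 8 mural, 10 striatal interneuron and 3 lymphocyte markers was called (limma), of which 3, 4, 0, 2, 2 and 0 had an unadjusted p under 0.05. Col1a2 of 10 meningeal markers (log2 difference 0.47), Otx2 of 7 choroid plexus markers (0.53) and Lhb of 3 pituitary markers (1.70) were called higher in SF. The medians of these 3 lists were -0.065, 0.526 and 0.558 with stress, and 0.169, -0.319 and 0.91 without it. The defining choroid plexus transcript Ttr stayed at or under 2.62 CPM in every stressed library. The calls of Col1a2, Otx2 and Lhb were each lost without SF2 and without SM2. Those of Otx2 and Lhb were also lost without SF3 or SM1, and that of Lhb after GC adjustment (1.33).

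The unstressed libraries show how far the same genes differed between the sexes without stress. The 2 comparisons share no library, but they come from the same fit and share its estimate of each gene's spread. NSF and NSM differed in 904 genes (5.29%) by the same rule, 729 of them (80.6%) higher in females. Of the 941 genes called between SF and SM, 213 were also called between NSF and NSM in the same direction, which is 22.6% of the first list and 23.6% of the second, and 19 were called in opposite directions. The sign was the same for 79.5% of the 941 genes and for 59.6% of all genes tested. By direction, 84.5% of the genes higher in SF were also higher in NSF than in NSM, with a median log2 difference of 0.29, while 51.4% of the genes lower in SF were also lower in NSF, with a median of -0.0075. The GC trend was shared by both comparisons, with a median log2 difference of 0.182 (stressed) and 0.153 (unstressed) for the genes with the highest GC. After GC adjustment the sign was the same for 69.8% of the called genes and 53.8% of all genes. Cortical markers stood apart in the unstressed groups, with summed levels of 293, 50.4 and 416 CPM in NSF1, NSF2 and NSF3 and 39.0, 33.1 and 54.0 CPM in NSM1, NSM2 and NSM3, and 7 of the 10 were called higher in NSF. With the level of these markers as a covariate, the sign was the same for 71.5% of the called genes.

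Among the 4 group means, SM was the lowest for 753 of the 799 genes called higher in SF, and SF was the highest for 367 and NSF for 373. For the 142 genes called lower in SF, SM was the highest for 127 and SF the lowest for 102. The choice of the genes puts SM below or above SF, so these counts describe the genes and are no test. Zbtb16, Irs2, Agxt2l1, Per2, Gjb6, Hspa1b and Nr4a3 had SM as the lowest mean, with log2 differences between SF and SM of 1.07, 0.77, 0.91, 0.51, 0.52, 1.77 and 0.61, and between NSF and NSM of -0.073, 0.089, 0.073, 0.050, -0.12, -0.091 and -0.28. Mafa, Gadd45b and Esrra were called in both pairs of groups (2.21 and 1.78 for Mafa, 0.51 and 0.52 for Gadd45b, 0.45 and 0.48 for Esrra).

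Whether the sex difference itself changed with stress was tested by the difference between the 2 sex differences. By the same rule 725 genes (4.25%) were called in this test, and 1609 had an unadjusted p under 0.05. For 359 of the 725, the difference of females minus males was more positive in stressed mice. Of the genes called between SF and SM 215 (22.8%) were among the 725, so that most were not called in this test with 3 libraries a group. After adjustment 4 genes kept a p under 0.05 in limma, which are Chordc1, Banp, Slc5a3 and Cables1. This count was 0 without each of 8 libraries (NSF1, NSM2, NSM3, SF1, SF2, SF3, SM2 and SM3) and with the cortical marker level as a covariate, 2 without NSF3, 7 without SM1 and 210 without NSF2. Chordc1, a cochaperone of Hsp90 (ENSMUSG00000001774, chr9:18096711-18118444, plus strand), had 66.6, 58.8 and 61.6 CPM in SF, 52.2, 54.0 and 53.6 CPM in SM, 61.2, 60.5 and 65.6 CPM in NSF and 76.6, 83.8 and 80.3 CPM in NSM. Its difference was 0.22 on the log2 scale with stress and -0.36 without it. Slc5a3, the myo-inositol transporter (ENSMUSG00000089774, chr16:92058567-92087718, plus strand), had 50.9 ± 2.44 CPM in SF, 41.4 ± 2.74 in SM, 46.3 ± 4.86 in NSF and 63.0 ± 3.49 in NSM (SD, n = 3). For both genes, females lay above males with stress and below them without it. Hectd2, a ubiquitin ligase, had the next smallest p (0.28 with stress and -0.26 without it, adjusted p = 0.105 for the difference in limma), and it, Chordc1 and Slc5a3 were under the fold change minimum between SF and SM.

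**Figure D5:**
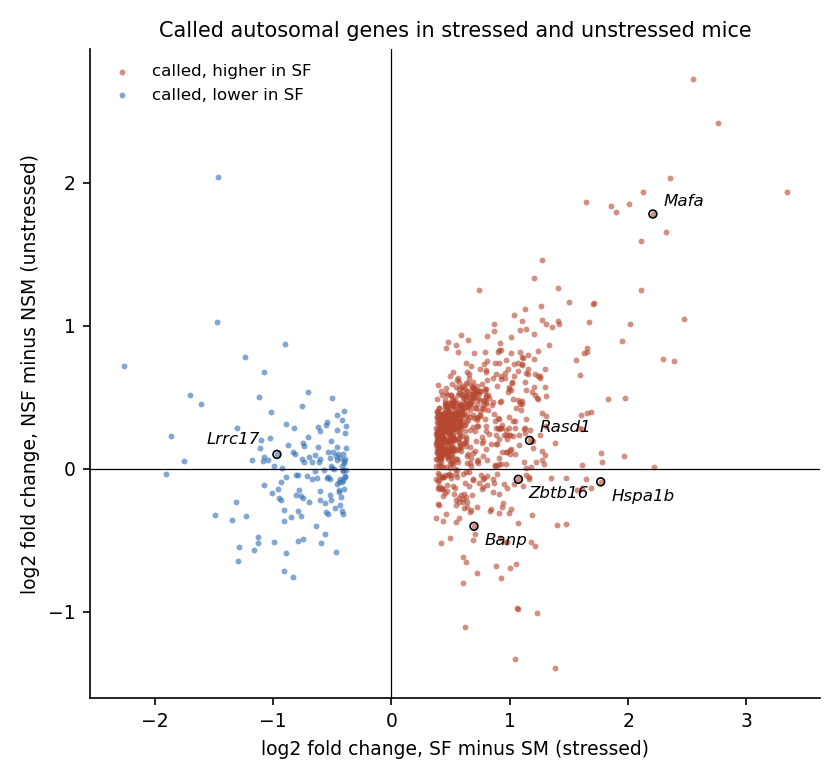
For each gene called between SF and SM (dot), the log2 fold change in stressed mice is plotted against that in unstressed mice (NSF minus NSM). Red dots (higher in SF) lie mostly above zero on the vertical axis, Zbtb16 and Hspa1b lie near zero and Banp below it, and blue dots (lower in SF) are spread around zero.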

How the data were processed

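Long RNA of pooled NAc punches was sequenced from 12 libraries (4 groups of 3) as paired reads of 50 bases from a poly(A) kit that does not mark strand. The authors aligned the reads with TopHat2 to Ensembl NCBIM37 and deposited raw counts per gene made with HTSeq. How HTSeq treated strand is not given in the sources used here, so overlapping and antisense genes cannot be told apart. The small RNA table was not used here.

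Genes were kept if 80% or more of the libraries of any condition had over 5 reads (18593, 17078 of them autosomal by GENCODE annotation of NCBIM37; 798 without a position were left out). Counts were scaled by TMM (edgeR 4.0.16) and fitted with voom and limma 3.58.1 in R 4.3.3, over all 12 libraries with 1 mean per group. Called genes had p under 0.05 and a 1.3-fold difference, and adjusted p-values are Benjamini-Hochberg over all genes tested. Named genes were the 12 with the smallest p and the 5 with the largest fold in each direction (called, at least 10 reads, no overlap), up to 5 called members per list, and the 5 with the smallest p for the difference between sex differences. Remaining called list members and genes with an adjusted p under 0.05 were added after their values were seen. Members and lists were chosen with earlier results of these data known. Alternatives included edgeR, DESeq2 1.42.0, other scalings and filters, a replicate block and each library left out. GC adjustment (lowess per library) was added after seeing the data. With 3 libraries a group, exact permutation of 1 gene's values cannot give a p below 0.1. Replicates are pools of separate mice. The fits by voom (with and without GC adjustment), edgeR and DESeq2 were tested on simulated counts.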

Additional observations from a re-analysis of the deposited data

Results flagged for a closer look

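The sex difference differed between stressed and unstressed mice for 4 autosomal genes, by the test of the difference itself, after adjustment over all genes. For Chordc1, an Hsp90 cochaperone, the difference between the sex differences was 0.586 on the log2 scale, from 0.22 between SF and SM and -0.36 between NSF and NSM (adjusted p = 0.0328 in limma, 4.97e-07 to 0.556 over the alternatives). For Banp, a DNA-binding nuclear protein, the difference between the sex differences was 1.1 on the log2 scale, from 0.70 between SF and SM and -0.40 between NSF and NSM (adjusted p = 0.0328 in limma, 3.93e-07 to 0.556 over the alternatives). For Slc5a3, the myo-inositol transporter, the difference between the sex differences was 0.745 on the log2 scale, from 0.30 between SF and SM and -0.45 between NSF and NSM (adjusted p = 0.0328 in limma, 1.94e-06 to 0.851 over the alternatives). For Cables1, a linker of cyclin-dependent kinases, the difference between the sex differences was 0.568 on the log2 scale, from 0.50 between SF and SM and -0.068 between NSF and NSM (adjusted p = 0.0438 in limma, 0.00021 to 0.868 over the alternatives). The difference stayed called under each alternative for all 4 genes. Its adjusted p was over 0.05 for all 4 with the cortical covariate. The same held without NSF1, NSM2, NSM3, SF1, SF2, SF3, SM2 or SM3. For Cables1 it was also over 0.05 with DESeq2 size factors, quantile normalization, either other filter, GC adjustment, and without NSF3, NSM1 or SM1. Banp also passed 0.05 when scaled by library size or without SM1, and Slc5a3 without NSF3. The unstressed female libraries NSF1 and NSF3 held the most cortical marker RNA, and its part in these differences was not tested beyond the fit with that level as a covariate.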

How the results depend on the processing

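The direction of the result, more called genes higher than lower in SF, held under all alternatives, and no named gene changed sign. The 941 called genes became 1414 with a filter of at least 1 read in any library, 1529 with library quality weights, 2857 with no minimum fold change and 689 to 1356 when each library was left out in turn. The 18 genes with an adjusted p under 0.05 became 552 with DESeq2, 503 with only the 6 stressed libraries, 6 when scaled by library size, 11 by DESeq2 size factors, 10 by quantile normalization, 7 with either other filter, 1803 with quality weights, 10 after GC adjustment and 0 to 483 without single libraries. The share higher in SF, 84.9%, was 89.0% with DESeq2, 75.3% with quantile normalization, 73.4% with the filter of at least 1 read, 71.0% after GC adjustment and 74.3 to 88.2% without single libraries. The same sign in unstressed mice, 79.5%, was 82.2% with DESeq2, 70.9% with the filter of at least 1 read, 71.5% with the cortical covariate, 69.8% after GC adjustment and 71.2 to 81.5% without single libraries. For the difference between sex differences, the 725 called genes were 1150 with the filter of at least 1 read and 591 to 985 without single libraries, and the 4 with an adjusted p under 0.05 were 129 with DESeq2, 14 with quality weights, 0 with the cortical covariate and 0 to 210 without single libraries. The 37 called genes of the pathway lists ranged from 20 to 39 when single libraries were left out, lowest without SM2, and from 25 (GC adjustment) to 41 (replicate block, stressed libraries) under the other settings. The causes were not tested.

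Replicate numbers showed no pairing of SF with SM libraries: deviations of same-numbered libraries correlated at 0.0129, -0.0203 and -0.000226 across genes. The unstressed libraries were not in this check. The median log2 deviation of the genes with the highest GC was highest in replicate 3 of each group. It was 0.161 in NSF3, 0.0676 in NSM3, 0.114 in SF3 and -0.0261 in SM3. Whether the groups share a replicate effect was not tested. With a replicate block 1025 genes were called and 791 genes, at any fold, had an adjusted p under 0.05 (956 and 667 with the 6 stressed libraries), and the difference between sex differences had 8. Depth limits genes with few reads: 97 called genes (10.3%) had under 10 reads on average, against 6.03% of all autosomal genes tested.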

Other observations

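The share of autosomal genes called between SF and SM ranged from 3.34% on chromosome 1 to 8.09% on chromosome 7. By class, 818 protein-coding genes (5.42% of those tested) were called, 735 of them higher in SF. Of the pseudogenes, 53 (8.02%) were called, 24 of them higher in SF. A further 37 called genes were processed transcripts (5.39%), 16 were lincRNAs (4.64%) and 8 were of the miRNA class (10%). Over all autosomal genes tested, 5.51% were called.

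A glucocorticoid response element (the palindromic consensus, in the 250 bases before the start) was found in 2 of the 16 glucocorticoid receptor targets with a RefSeq promoter entry, Mt1 and Sgk1, and in 0.44% of all 27025 genes with an entry. Cck and Adcyap1, peptide genes abundant in cortical neurons, had log2 differences of -0.83 and -0.22 between SF and SM and 2.19 and 2.18 between NSF and NSM.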
